A study of Mus musculus with 16 samples.

Results

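The genes Jun, Junb, Jund, Fos, Fosl1 and Fosl2 encode subunits of the transcription factor AP-1, and their loci were examined for binding of RUNX1, MyoD, c-Jun and MyoG in mouse muscle cells. Every peak of the 4 deposited lists that overlapped 1 of 6 windows of the mouse build mm9 was taken. The windows were chr4:94620000-94820000 for Jun, chr8:87470000-87530000 for Junb, chr8:73190000-73250000 for Jund, chr12:86760000-86870000 for Fos, chr19:5410000-5480000 for Fosl1 and chr5:32380000-32500000 for Fosl2. They span 620 kb and held 207 peaks of the 193303 on chromosomes 1 to 19 and X. Of these, 46 were RUNX1, 51 MyoD, 45 c-Jun and 65 MyoG peaks.

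Chromatin immunoprecipitation with sequencing (ChIP-seq) was done on cultures grown from satellite cells, which are the resident stem cells of muscle, taken from the gastrocnemius of wild-type C57BL/6 mice aged 2 to 3 weeks. The 4 ChIP groups were RUNX1, MyoD and c-Jun in proliferating myoblasts after 3 days of culture, and MyoG in early myotubes after 24 hours of serum starvation on day 4. The 4 control groups were rabbit non-immune serum for RUNX1, mouse IgG for MyoD, rabbit IgG for c-Jun and mouse IgG for MyoG, with 2 samples, biological replicates per the labels, in each of the 8 groups. A single list of peaks was at hand for each ChIP group and none for the controls. The list of MyoG was matched to its factor by elimination from an abbreviated name, and stage and factor cannot be told apart in any comparison with it.

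AP-1 is a dimer of leucine zipper proteins. Jun proteins pair with each other or with Fos proteins, whereas Fos proteins need a Jun partner to bind DNA. Jun, Junb and Fos are immediate early genes that respond to growth factors, and Jun is known to be activated by its own product through an AP-1-like element in its promoter. MyoD and MyoG are basic helix-loop-helix factors that bind E-boxes, and c-Jun and MyoD are known to inhibit each other in cultured cells. RUNX1 is a Runt domain factor that is induced in regenerating or denervated muscle.

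Promoter sequences from RefSeq on build GRCm38.p6 were searched for the fixed letters of a few elements. They were matched by symbol for 5 of the 6 genes, and each spans 250 bases before to 50 after the start. Coordinates of that build cannot be set beside the mm9 peaks, so no peak was placed on a promoter here. Searched on both strands were the AP-1 site TGACTCA, the cAMP response element TGACGTCA, the RUNX site TGTGGT, the E-box CANNTG and the E-box form CAGCTG, itself one of the CANNTG letters. The AP-1 variant TGACATCA was added after the Jun promoter had been read. In these sequences, printed 5′ to 3′ on the strand of the gene, capitals mark CAGCTG or TGACATCA. The 4 promoters shown are those with such a match.
Jun, chr4:95052173-95052472, minus strand: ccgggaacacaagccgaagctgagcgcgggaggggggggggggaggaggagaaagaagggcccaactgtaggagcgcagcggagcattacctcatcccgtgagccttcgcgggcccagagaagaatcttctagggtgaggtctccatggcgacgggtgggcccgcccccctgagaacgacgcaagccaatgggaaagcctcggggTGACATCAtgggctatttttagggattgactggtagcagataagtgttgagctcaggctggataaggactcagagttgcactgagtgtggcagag
Junb, chr8:84978699-84978998, minus strand: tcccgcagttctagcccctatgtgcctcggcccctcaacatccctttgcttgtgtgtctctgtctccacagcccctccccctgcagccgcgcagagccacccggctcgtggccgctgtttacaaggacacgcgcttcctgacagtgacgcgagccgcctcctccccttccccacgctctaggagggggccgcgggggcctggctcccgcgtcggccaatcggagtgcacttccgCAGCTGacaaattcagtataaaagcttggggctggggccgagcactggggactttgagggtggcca
Jund, chr8:70697489-70697788, plus strand: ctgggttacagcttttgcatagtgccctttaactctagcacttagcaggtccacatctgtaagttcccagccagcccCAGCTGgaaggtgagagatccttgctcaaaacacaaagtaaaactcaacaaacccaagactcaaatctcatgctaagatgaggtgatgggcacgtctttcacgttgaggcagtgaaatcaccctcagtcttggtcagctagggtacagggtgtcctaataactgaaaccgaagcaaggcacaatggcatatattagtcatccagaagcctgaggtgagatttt
Fos, chr12:85473640-85473939, plus strand: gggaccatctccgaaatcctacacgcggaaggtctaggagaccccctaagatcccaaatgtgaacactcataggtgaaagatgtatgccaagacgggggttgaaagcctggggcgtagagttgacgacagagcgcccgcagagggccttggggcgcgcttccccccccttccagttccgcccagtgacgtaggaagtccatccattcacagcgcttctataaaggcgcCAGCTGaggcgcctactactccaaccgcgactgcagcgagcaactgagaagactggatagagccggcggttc

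The Jun promoter held the variant TGACATCA with its first base at -45 from the start, letters found in 3.62% of the 32851 promoters of the same length. CAGCTG lay at -16 in Junb, at -173 in Jund and at -22 in Fos, and 16.3% of all promoters held it. Fosl2 held none of the searched letters. The letters TGACTCA, TGACGTCA and TGTGGT were absent from all 5 promoters, against 5.2%, 1.79% and 16.8% of all promoters that held them. Apart from TGACATCA, other forms of these sites were not searched, so a promoter without a match can still hold one. E-boxes of any form were present in 4 of these 5 promoters, as they were in 72.3% of all promoters. A match is a description of letters and no measure of binding, and the Jund entry stood apart with 46.7% G and C against 58.7% to 65.3% in the other 4. Which start each gene uses in these cells was not analysed here. RefSeq lists Mysm1 and Fggy as the protein-coding neighbours of Jun, Prdx2 and Hook2 of Junb, Lsm4 and Iqcn of Jund, and Babam2 and Plb1 of Fosl2. A peak in a window was therefore not assigned to the AP-1 gene.

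All 4 factors had more peaks per length in the 6 windows together than in their whole lists. RUNX1 had 7.42 peaks per 100 kb against 1.62 in its list, and MyoD had 8.23 against 1.74. For c-Jun the values were 7.26 against 1.6, and for MyoG 10.5 against 2.37. The ratios lay between 4.43 and 4.72, so the 4 lists had ratios close to each other. The whole chromosomes were the basis of the list values, and windows matched for gene content were not compared. The lists do not separate the replicates and the depth is unknown, so no test over samples was possible for any value of this report.

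**Figure D1:**
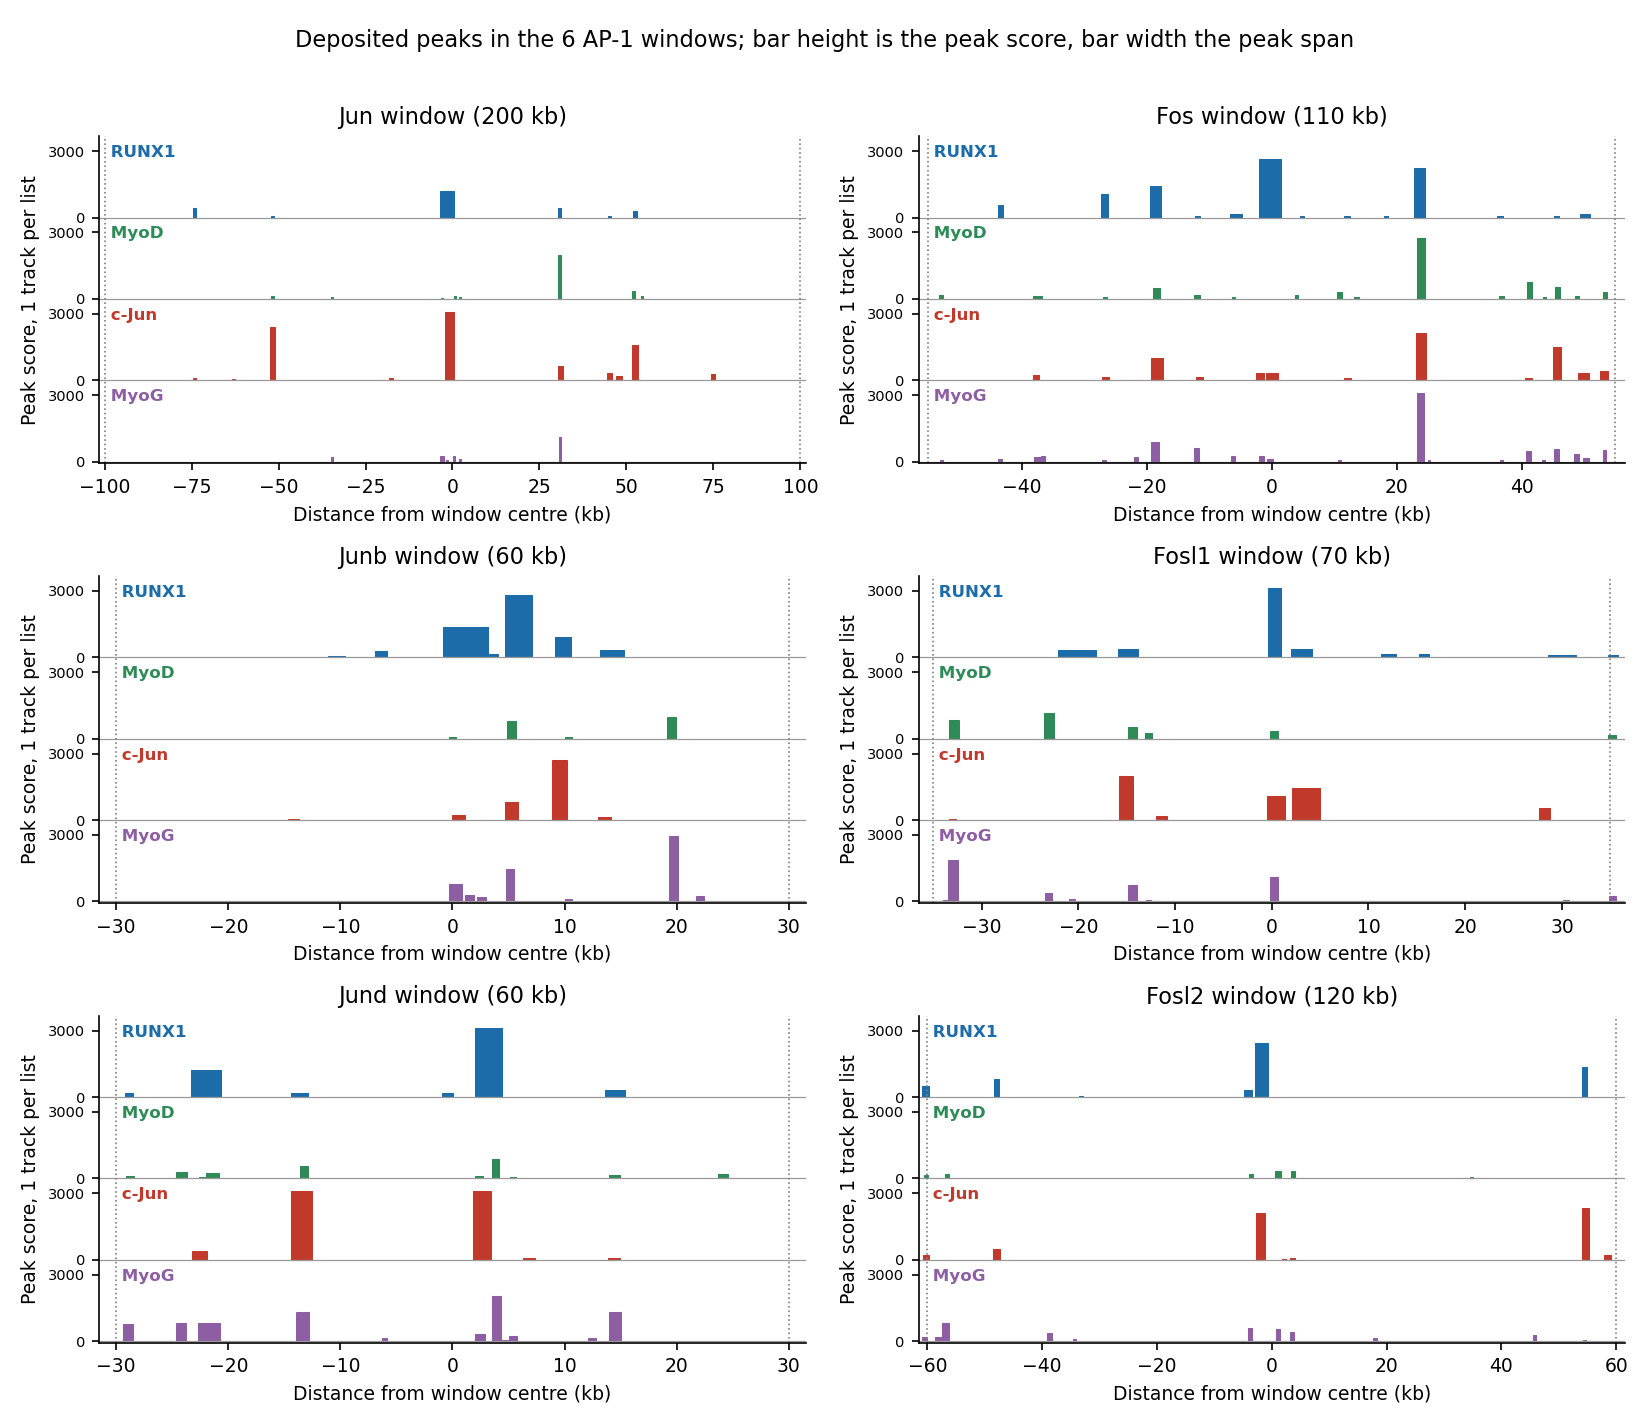
Peaks of the 4 lists in each window, by distance from the window centre in kb (horizontal) and by the authors' score (vertical, 1 track per list, with ticks at 0 and 3000). Dotted lines mark the window edges, and each bar spans its peak; the c-Jun track reaches 3100 in the Jun and Jund windows, the RUNX1 track reaches or passes it in the Jund and Fosl1 windows, and the MyoG track reaches it in the Fos window.

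Scores are the values that the authors' peak caller wrote, and they were used only to rank peaks within their own list. A factor is said to lead a region where its peak there had the highest rank, each rank taken in its own list. Many peaks are tied at exactly 3100, with 364 in the RUNX1 list, 800 in MyoD, 286 in c-Jun and 676 in MyoG, and ranks are not resolved among them. The windows held 2 RUNX1 peaks, 3 c-Jun peaks, 1 MyoG peak and 0 MyoD peaks at or above 3100. RUNX1 peaks of the windows had a median score of 318 against 177 in the whole list, and 12 of 46 (26.1%) were in the top 10% of the list, which holds 10.0% by construction. For c-Jun, the median was 321 against 171, with 14 of 45 (31.1%) in the top 10%.

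MyoD and MyoG differed from this at the top of their lists. The MyoD median was 165 in the windows against 176 in the list, and 3 of 51 peaks (5.88%) were in the top 10%. MyoG had a median of 254 against 189, with 7 of 65 peaks (10.8%) in the top 10%. In the upper 50% of its list lay 28 of 46 RUNX1 (60.9%), 25 of 51 MyoD (49.0%), 30 of 45 c-Jun (66.7%) and 42 of 65 MyoG peaks (64.6%). RUNX1, c-Jun and MyoG peaks were thus above the list share in the upper 50%. In the top 10% only RUNX1 and c-Jun were clearly above it, and MyoD peaks were so at neither level. Neighbouring peaks are not independent, and the differences in rank were not tested.

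**Figure D2:**
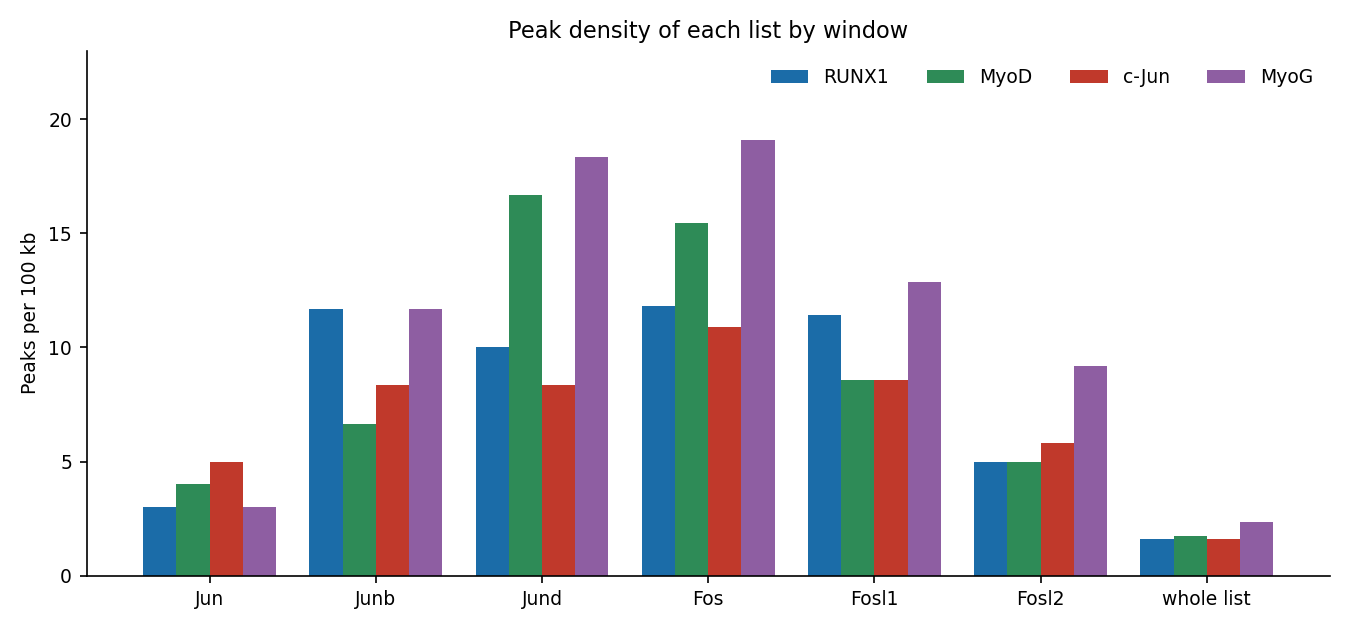
Peaks per 100 kb (vertical) of each list in the 6 windows and, at the right, in the whole list on chromosomes 1 to 19 and X. The Fos window is the densest for RUNX1, c-Jun and MyoG and the Jund window for MyoD, and among the windows Jun has the lowest bar of each list, all above the whole list.

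**Figure D3:**
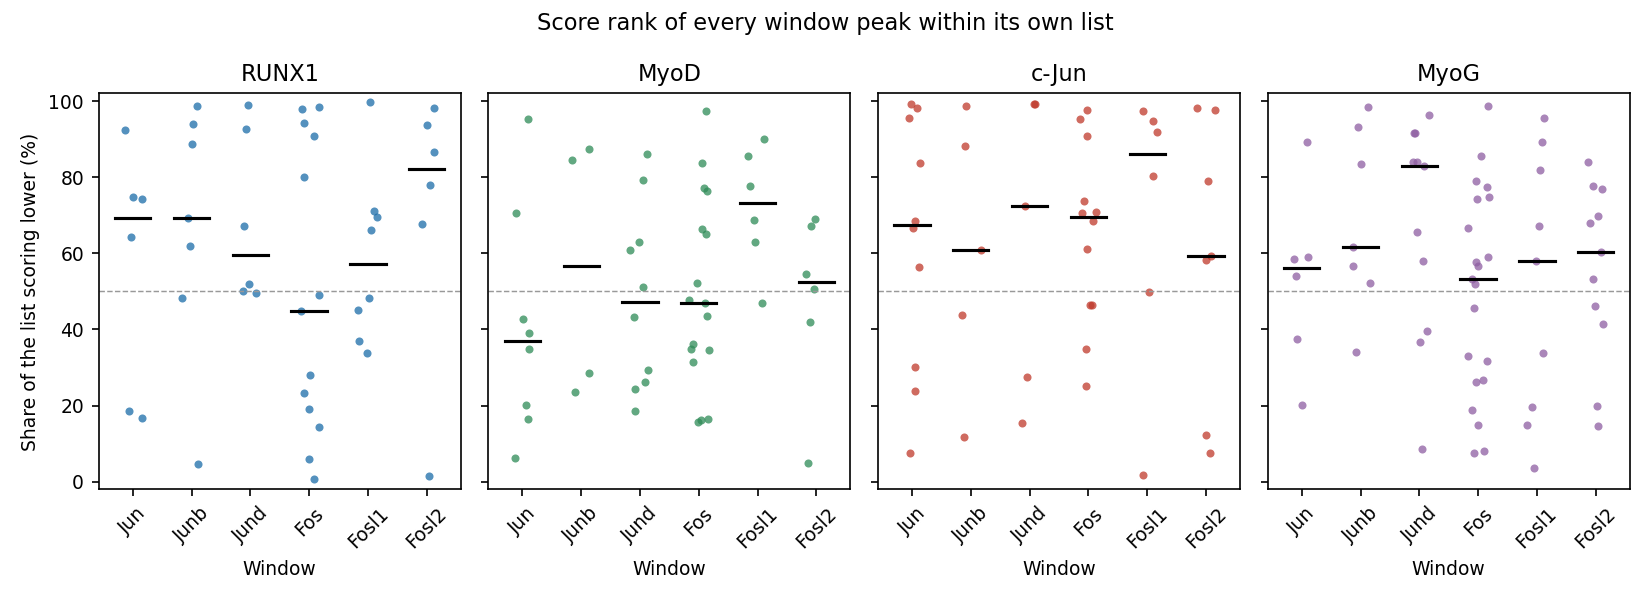
Share of the list with a lower score (vertical, percent) for every peak of each window (points), with the median of the window (black bar) and 50% (dashed). The c-Jun medians lie above 50% in all 6 windows, whereas the MyoD medians lie below it in the Jun, Jund and Fos windows.

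The Jun window was the only one of the 6 in which c-Jun had the most peaks. Jun encodes c-Jun itself, the Jun protein that was precipitated in this study. Its 200 kb held 10 c-Jun, 6 RUNX1, 8 MyoD and 6 MyoG peaks. Of 13192 windows of 200 kb laid end to end over the chromosomes, 7.88% held at least as many c-Jun peaks, 22.9% as many RUNX1, 16.6% as many MyoD and 31.3% as many MyoG peaks. Jun was thus the least crowded of the 6 windows for each factor by this measure.

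Every RUNX1 peak at Jun (6 of 6) met a c-Jun peak, against 46.8% of all RUNX1 peaks, and 4 of 6 met a MyoD peak, against 44.3%. With centres within 150 bp, the c-Jun share was 66.7%, against 24.6% of the list. The c-Jun peaks of this window rarely met MyoG, in 2 of 10 cases, against 45.1% of all c-Jun peaks. MyoG was present in 0 of the 6 Jun regions with c-Jun and no MyoD, against 16.0% of all such regions. So few regions cannot set 0 apart from that share, and the 6 windows together had 3 of 19 (15.8%). A region here is a run of overlapping peaks of any of the lists, so not all of its peaks need to overlap each other.

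The widest region of the Jun window, chr4:94716408-94720990, joined 7 peaks of all 4 factors. Its c-Jun peak scored 3100 over 2646 bp, above 99.2% of the c-Jun list. The RUNX1 peak there scored 1210 over 3971 bp, above 92.4% of the RUNX1 list. MyoD and MyoG were weak beside them, with MyoD scores of 60.1 and 128 and MyoG scores of 258, 79.2 and 263. Ranked by its weakest myoblast factor, the best region of the window was another one, chr4:94750295-94751879. There MyoD scored 1981, c-Jun 646, RUNX1 433 and MyoG 1108, and MyoD and MyoG had their highest scores of the window.

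A pair of Jun regions held RUNX1, MyoD and c-Jun without MyoG, and both had a strong c-Jun peak. In chr4:94667629-94668979 the scores were 2395 for c-Jun, 142 for MyoD and 70.8 for RUNX1. In chr4:94771537-94773385 they were 1574 for c-Jun, 381 for MyoD and 291 for RUNX1. These were the only regions of that class in the 6 windows, and the class made up 0.942% of all 99548 regions. Of the 13 regions of the window, 4 were c-Jun alone, against 14.3% of all regions, with scores from 57.8 to 297, and 1 was MyoD alone at 113. The strongest single-factor region was the c-Jun peak at chr4:94794236-94795423.

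At Junb, RUNX1 was the most crowded factor. Junb encodes a Jun protein that can oppose c-Jun at some targets. Its 60 kb held 7 RUNX1, 4 MyoD, 5 c-Jun and 7 MyoG peaks in 10 regions. Among 43945 windows of 60 kb, 1.74% had at least as many RUNX1 peaks, 3.86% as many c-Jun, 4.88% as many MyoG and 9.1% as many MyoD peaks. RUNX1 peaks covered 22.7% of the Junb window, the largest cover of any list in any of the 6 windows.

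The 3 four-factor regions at Junb lay close together and differed in which factor was strong. In chr8:87504654-87507124, the best by weakest rank, RUNX1 scored 2821, c-Jun 832, MyoD 787 and MyoG 1481. In chr8:87499137-87503163, RUNX1 scored 1391 over a peak of 4027 bp, with 3 MyoG peaks of up to 796, c-Jun at 243 and MyoD at 86.0. In chr8:87508888-87510693, c-Jun led with 2715, above 98.8% of its list, beside RUNX1 at 916, MyoG at 116 and MyoD at 96.9. RUNX1 thus led in the first pair of these, and c-Jun in the last. The sharing at Junb depended on the rule, since 0 regions held all 4 factors with centres within 150 bp or with 200 bp around each centre. In the stronger 50% of each list, and likewise with scores of at least 100, 1 did.

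Outside these, the strongest MyoG peak of the Junb window (2963, above 98.6% of its list) met a MyoD peak of 962 at chr8:87519158-87520099, with no RUNX1 or c-Jun peak. RUNX1 was alone in 3 of 10 regions, against 10.8% of all regions, with scores of 54.8, 267 and 169, and the strongest was chr8:87493065-87494174. A region with RUNX1 and c-Jun, at 353 and 142, had neither helix-loop-helix factor.

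The Jund window was dense in MyoD and MyoG. Jund encodes a Jun protein that is present in most cells without induction. Its 60 kb held 6 RUNX1, 10 MyoD, 5 c-Jun and 11 MyoG peaks in 13 regions. As many MyoD peaks occurred in 0.203% of windows of that length and as many MyoG peaks in 0.942%, against 3.02% for RUNX1 and 3.86% for c-Jun. The count of MyoD peaks was high but their scores were not, with a median of 164 and a maximum of 867.

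Jund had 4 four-factor regions. In the strongest, chr8:73221855-73224395, the RUNX1 and the c-Jun peak both stood at 3100, with MyoG at up to 2048 and MyoD at up to 867. A further c-Jun peak of 3100 lay in chr8:73205560-73207455, with MyoG at 1313, MyoD at 583 and RUNX1 at 189. The third, chr8:73196668-73199322, was led by RUNX1 at 1237, with MyoG at 814, c-Jun at 378 and MyoD at up to 257. In the last, chr8:73233637-73235358, MyoG led with 1317, and RUNX1 at 325, MyoD at 144 and c-Jun at 92.1 were lower. The highest MyoG peak of each of the 4 scored between 814 and 2048. All 4 factors were joined in 1 region of the window with centres within 150 bp and in 2 with 200 bp around each centre.

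Of the remaining Jund regions, chr8:73190626-73191573 held RUNX1 at 175, MyoD at 98.6 and MyoG at 774. MyoD and MyoG shared 2 further regions, and 6 held 1 factor, of which 3 were MyoG peaks with scores from 60.03 to 137. The strongest single-factor region was a MyoD peak of 183 at chr8:73243666-73244560.

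Fos carried the most peaks of any of the 6 windows. Its product c-Fos is the classical partner of c-Jun, and RefSeq lists Jdp2, whose product represses AP-1, and Batf, another AP-1 family gene, as the next protein-coding genes after it. The 110 kb window held 13 RUNX1, 17 MyoD, 12 c-Jun and 21 MyoG peaks in 23 regions. As many peaks were found in 0.78% of 23975 windows of that length for RUNX1, in 0.104% for MyoD, in 0.363% for c-Jun and in 0.292% for MyoG. Fos was the one window where each of the 4 shares lay below 1%.

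In contrast to Jun, nearly every c-Jun peak at Fos met MyoG, with 11 of 12 (91.7%) against 45.1% of all c-Jun peaks. With centres within 150 bp it was 4 of 12 (33.3%) at Fos and 0 of 10 at Jun, against 26.9% of all c-Jun peaks. With 200 bp around each centre it was 4 of 12 at Fos and 1 of 10 at Jun, against 30.7%. The Fos share thus lay near that of the list under both closer rules, and the Jun share below it. In the middle 50% of each window, the share was 6 of 7 (85.7%) at Fos. At Jun it was 2 of 5 (40.0%) there, near the 45.1% of the list. Of the Fos c-Jun peaks, 9 of 12 met MyoD and 9 of 12 met RUNX1, against 44.0% and 46.8% of the list. The difference between the Jun and Fos windows was not tested, since peaks of 1 window are not replicates.

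Among the 6 four-factor regions at Fos, chr12:86837732-86839604 ranked high in all lists. RUNX1 scored 2249, MyoD 2737, c-Jun 2113 and MyoG 3100, and the lowest rank was that of MyoD, above 97.5% of its list. It was the only region of the 6 windows in which all 4 factors ranked in the top 10% of their lists. The next by weakest rank was chr12:86795546-86797577, with RUNX1 at 1424, c-Jun at 1003, MyoG at 890 and MyoD at 501.

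The other 4 differed in their leading factor. RUNX1 led in chr12:86787700-86788989, at 1051 against 154 for c-Jun, 72.7 for MyoD and 59.2 for MyoG. In chr12:86860068-86861323, c-Jun led with 1513, MyoG had 584, MyoD 522 and RUNX1 75.1. MyoG led in chr12:86802608-86803949 at 629, with RUNX1 near the low end of its list at 56.0. In chr12:86863400-86865961, all 4 factors scored between 118 and 357, and its RUNX1 and MyoD peaks did not overlap each other.

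The strongest RUNX1 peak at Fos lay elsewhere, in chr12:86812533-86816400, where it scored 2642 over 3517 bp. A pair of c-Jun peaks (353 and 321) and a pair of MyoG peaks (242 and 112) overlapped it, and no MyoD peak was listed. MyoD, c-Jun and MyoG met without RUNX1 in 3 further regions, with MyoD scores from 112 to 744. Single-factor regions at Fos were 6 of 23 (26.1%), against 48.3% of all regions. Regions of c-Jun alone were 0 of 23, against 14.3%. The strongest was a MyoG peak of 203 at chr12:86792912-86793593.

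The Fosl1 window held the highest RUNX1 score of all 6, 3104, little above the 3100 of the Jund window. Fosl1 encodes Fra-1, a Fos relative without the strong activation domain of c-Fos. Its 70 kb held 8 RUNX1, 6 MyoD, 6 c-Jun and 9 MyoG peaks in 13 regions. Of 37671 windows of that length, 1.52% had at least as many RUNX1 peaks, 4.24% as many MyoD, 2.95% as many c-Jun and 3.32% as many MyoG peaks.

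In chr19:5444488-5446345, RUNX1 scored 3104, above 99.9% of its list, with MyoG at 1103, c-Jun at 1094 and MyoD at 353. The other four-factor region, chr19:5429107-5431167, was better by weakest rank and was led by c-Jun at 2005, with MyoG at 726, MyoD at 536 and RUNX1 at 379. Another strong c-Jun peak, at 1424 over 2859 bp, met RUNX1 at 358 without MyoD or MyoG in chr19:5446992-5449991. c-Jun peaks at Fosl1 ranked high, with a median score of 817 and 3 of 6 in the top 10%.

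MyoD and MyoG were also strong here apart from RUNX1. In chr19:5411504-5412647, MyoG scored 1868 and MyoD 836 beside a c-Jun peak of 51.6. In chr19:5421455-5422527, MyoD had its highest score of the window, 1176, with MyoG at 366. The region chr19:5422851-5426819 was a RUNX1 peak of 3969 bp with a score of only 312 and a MyoG peak of 114 within it. Single-factor regions numbered 4, the strongest by rank being c-Jun at 170.

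At Fosl2 the peaks of highest rank were of RUNX1 and c-Jun, and no MyoD peak ranked high. Fosl2 encodes Fra-2, a widely expressed Fos relative. Its 120 kb held 6 RUNX1, 6 MyoD, 7 c-Jun and 11 MyoG peaks in 17 regions. Of 21976 windows of that length, 11.7% had at least as many RUNX1, 12.3% as many MyoD, 6.85% as many c-Jun and 6.5% as many MyoG peaks.

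RUNX1 and c-Jun had these high scores in shared regions. In chr5:32437107-32439428, RUNX1 scored 2451 and c-Jun 2116, with neither MyoD nor MyoG. In chr5:32493961-32495306, c-Jun scored 2314 and RUNX1 1354, with a MyoG peak of 69.4. In chr5:32391386-32392656, RUNX1 scored 802 and c-Jun 504 again without the helix-loop-helix factors. The MyoD peaks of the window reached only 356, above 69.1% of their list, and 2 of 6 RUNX1 peaks (33.3%) met MyoD, against 44.3% of the list. The count was 0 of 6 with centres within 150 bp, against 25.0%.

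A single four-factor region was found at Fosl2, chr5:32379011-32380252, which crosses the window edge. RUNX1 scored 508 there, c-Jun 230, MyoG 212 and MyoD 139. With only peaks wholly inside the window, the count at Fosl2 was 0. MyoG was alone in 5 of 17 regions, against 16.7% of all regions and 13.5% of those in the 6 windows, with scores from 79.2 to 379, and the strongest was chr5:32400798-32401669. MyoD met MyoG in 5 of 6 cases (83.3%), against 77.1% of the list, and c-Jun met MyoG in 3 of 7 (42.9%), against 45.1%.

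The 6 windows together held 89 regions, of which 18 (20.2%) had all 4 factors, against 10.7% of all 99548 regions. RUNX1, MyoD and c-Jun were all present in 20 (22.5%), against 11.6%. The four-factor regions numbered 6 at Fos, 4 at Jund, 3 at Junb, 2 each at Jun and Fosl1 and 1 at Fosl2. They numbered 3 at Fos, 1 each at Jund, Fosl1 and Fosl2, and 0 at Jun and Junb with centres within 150 bp, so the order of the windows was not kept. Regions of 1 factor made up 39.3%, against 48.3% of all. A closer match of centres brought the shares of shared regions near those of all regions. With centres within 150 bp, 6 of 135 regions (4.44%) had all 4 factors, against 4.16% of all regions made by that rule. The 3 myoblast factors were then held by 7 of 135 (5.19%), against 4.64%. Among the stronger 50% of each list, 9 of 60 regions (15.0%) had all 4, against 7.14%.

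**Figure D4:**
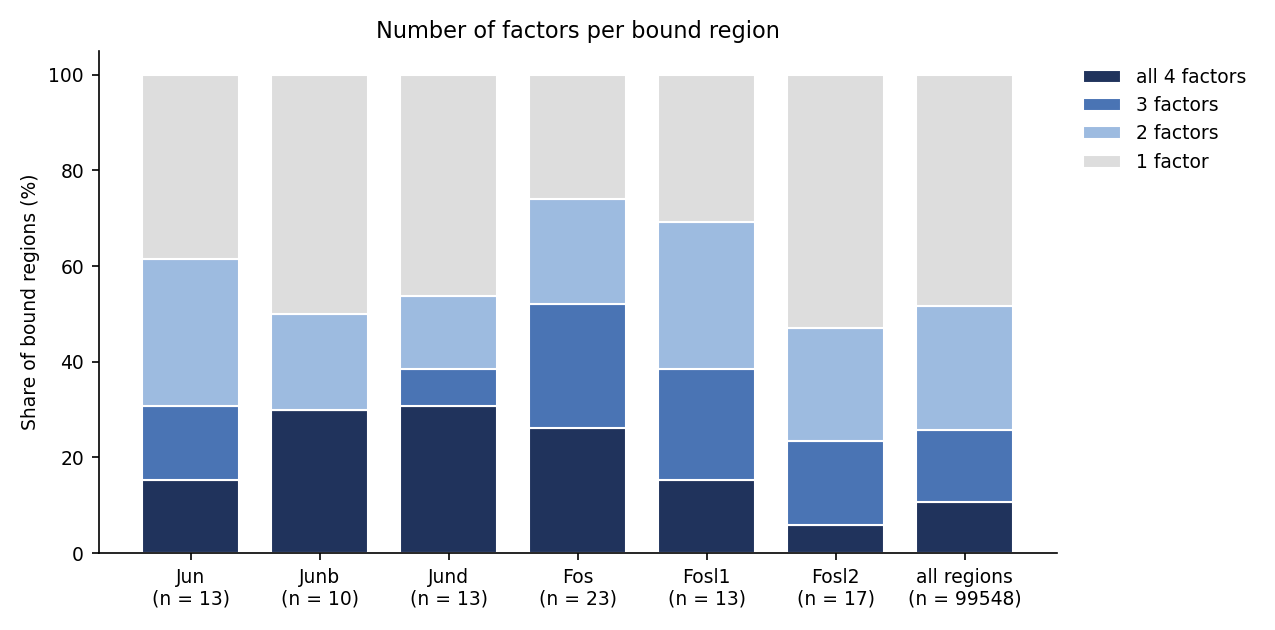
Share of bound regions (vertical, percent) with 1, 2, 3 or all 4 factors in each window and among all 99548 regions, with the number of regions under each bar. Four-factor regions make up 30.8% at Jund, 30.0% at Junb and 26.1% at Fos, and 5.88% at Fosl2, against 10.7% of all regions, by overlap of at least 1 bp.

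RUNX1 peaks of the windows met c-Jun more often than the list did, with 30 of 46 (65.2%, exact Clopper-Pearson 95% interval 49.8 to 78.6) against 46.8%. They met MyoD in 24 of 46 (52.2%, interval 36.9 to 67.1), against 44.3%. With centres within 150 bp, the c-Jun share was 26.1% against 24.6% of the list. The MyoD share was 21.7% against 25.0%, so that MyoD turned to the lower side. In the stronger 50% of each list, 19 of 28 RUNX1 peaks (67.9%) met c-Jun, against 38.6%. There 11 of 28 (39.3%) met MyoD, against 37.1%. With scores of at least 100, the shares were 63.9% against 43.4% for c-Jun and 41.7% against 41.1% for MyoD. The intervals cover counting error only and treat neighbouring peaks as independent.

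The other direction gave the same picture for c-Jun, with 31 of 45 c-Jun peaks (68.9%) met by RUNX1 against 46.8%. MyoD peaks met RUNX1 in 27 of 51 cases (52.9%), against 42.5%, and met c-Jun in 27 of 51, against 41.9%. Against the list from early myotubes, 44 of 51 MyoD peaks (86.3%, interval 73.7 to 94.3) had a MyoG peak, against 77.1% of the list, and every MyoD peak at Junb (4) and Fosl1 (6) had one. At Jun it was 5 of 8. With centres within 150 bp, 68.6% of MyoD peaks met MyoG, against 67.6% of the list, and with scores of at least 100 the share was 73.7%, against 76.7%.

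Conversely, MyoG peaks met MyoD in 43 of 65 cases (66.2%), against 57.7% of the MyoG list. They met RUNX1 in 34 of 65 (52.3%), against 42.4%, and c-Jun in 29 of 65 (44.6%), against 32.8%. RUNX1 peaks met MyoG in 28 of 46 (60.9%), against 57.9%.

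MyoG was set side by side in regions with MyoD and in regions with c-Jun but no MyoD. It was present in 40 of 47 regions with MyoD (85.1%), against 77.2% of all such regions. In regions with c-Jun but no MyoD it was present in 3 of 19 (15.8%), against 16.0%. Of the 20 regions with RUNX1, MyoD and c-Jun, 18 had MyoG, against 91.9% of all such regions. The last pair of shares lay near those of all regions.

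**Figure D5:**
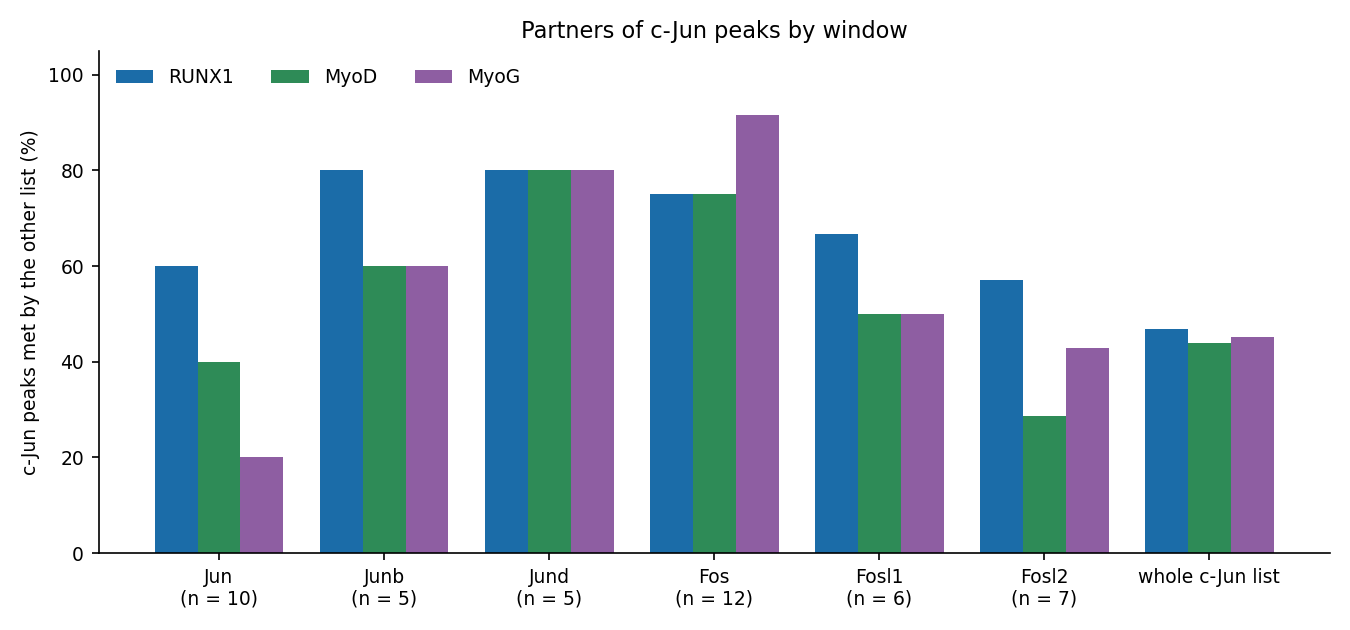
Share of c-Jun peaks (vertical, percent) met by a RUNX1, MyoD or MyoG peak in each window and in the whole c-Jun list, with the number of c-Jun peaks under each window. MyoG stands at 2 of 10 in the Jun window and at 11 of 12 in the Fos window, and RUNX1 is above the 46.8% of the list in all 6.

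In four-factor regions of these loci, RUNX1 and c-Jun peaks scored above those of all four-factor regions, and MyoD peaks scored below. In four-factor regions of the windows, RUNX1 peaks had a median score of 983 (18 peaks) against 319 in all such regions, and c-Jun peaks had 918 (18 peaks) against 307. MyoG peaks had 607 (24 peaks) against 573. MyoD peaks had 189 (21 peaks), against 464 in all four-factor regions and 176 in the whole list. Every peak of a region counted on both sides. The 21 thus include weaker peaks beside a stronger MyoD peak, at 60.1 in Jun and at 87.4 and 91.4 in Jund. Medians over the strongest peak of each region were not compared. The pattern of RUNX1, c-Jun and MyoD held only in part in other shared regions. In three-factor regions, RUNX1 had a median of 174 (10 peaks) against 196 in all such regions. There c-Jun had 353 (11 peaks) against 188, and MyoD had 161 (13 peaks) against 229. In two-factor regions, MyoD had 229 (12 peaks) against 133. RUNX1 had 358 (9 peaks) against 164 in these, and c-Jun had 321 (7 peaks) against 174. Alone in a region, RUNX1 had a median of 153 against 106, MyoD 113 against 85.4 and MyoG 140 against 95.8. The c-Jun peaks alone had 98.6 against 116, and were the only ones below the median of all single-factor peaks of their list.

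The RUNX1 peaks of these loci were wide. Of 46, 12 (26.1%) were wider than 2000 bp, against 5.57% of the RUNX1 list, and their median width was 1374 bp against 944 bp. For c-Jun it was 3 of 45 (6.67%) against 3.45%, and for MyoD and MyoG 0 peaks of that width were found, against 0.486% and 0.28%. The widest RUNX1 peaks measured 4027 bp at Junb, 3971 bp at Jun, 3969 bp at Fosl1 and 3517 bp at Fos. Width was singled out after the values were seen.

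Centres of overlapping peaks lay further apart in the windows than in the lists. The median distance was 316 bp for RUNX1 with MyoD (27 pairs) against 132 bp over all pairs, and 223 bp for RUNX1 with c-Jun (31 pairs) against 143 bp. MyoD and MyoG centres lay closest, 81 bp apart (45 pairs) against 55 bp. Wide peaks can overlap at more distant centres, and the part of width in these distances was not tested.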

How the data were processed

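ChIP-seq peak lists of 4 factors were used, 1 list per factor, from 16 samples. Each peak has a score, written by the authors' software, whose peak names begin with MACS per the deposited files. The submitters' processing notes name mm9, CASAVA 1.7.0 and 1.8.2 and Bowtie. For the peak caller's version and settings, its control and the joining of replicates, nothing is given in the sources used here. The deposited score is a peak's own value and was used only within its list.

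Starts were made 1-based, and chromosomes 1 to 19 and X were used. A peak was a member if it overlapped a window by at least 1 bp, and 7 members crossed an edge. Peaks met if they overlapped by at least 1 bp, and overlapping peaks of the 4 lists were joined into regions. The share of the list scoring lower counts strictly lower scores. Windows of equal length were laid end to end from base 1 of each chromosome to its last peak. The overlap code was tested on simulated data against an exhaustive search. Intervals came from scipy 1.17.1, tables from pandas 2.3.3 with numpy 2.4.6 under Python 3.11.15, and plots from matplotlib 3.10.9.

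The rule named, per window, the region shared by the 3 myoblast factors whose weakest rank was best, the highest peak of each list and the strongest single-factor region. Other regions were chosen after their values were seen. Windows, lists and rules were chosen with earlier results of these data known. Depth is unknown. Genes near a peak, peak sequences, proteins and other AP-1 genes were not analysed here, since no annotation or sequence of mm9 was used. Alternatives were other overlap rules, stricter scores and other window edges. Merging the 3 myoblast lists alone was added after seeing the data.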

Additional observations from a re-analysis of the deposited data

How the results depend on the processing

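Of 52 alternatives to the results over all 6 windows, 31 stayed within 1.5 times of a count or within the 95% interval of a share, and 21 did not. With centres within 150 bp, RUNX1 peaks met MyoD in 21.7% and c-Jun in 26.1%, MyoD peaks met MyoG in 68.6%, 7 regions held RUNX1, MyoD and c-Jun and 6 held all 4 factors. With 200 bp around each centre the same shares were 22.7%, 29.5% and 71.4%, against 28.9%, 28.9% and 70.9% of the lists. By that rule, 9 regions (7.2%) held the 3 myoblast factors, against 5.83% of all regions. All 4 factors were held by 8 (6.4%), against 5.26%. In the stronger 50% of each list, 10 regions (16.7%) held the 3 myoblast factors, against 7.88% of all regions. All 4 were held by 9 (15.0%), against 7.14%. In these stronger lists, 28 RUNX1, 25 MyoD and 42 MyoG peaks were left, fewer by construction. With scores of at least 100, 13 regions (17.6%) held the 3 myoblast factors, against 9.71% of all regions. Of MyoD peaks, 73.7% then met MyoG, against 76.7% of the list. The middle 50% of each window held 30 RUNX1, 27 MyoD, 28 c-Jun and 36 MyoG peaks, on less DNA. Apart from these constructions the cause was not tested. Merging the 3 myoblast lists alone left 20 regions of RUNX1, MyoD and c-Jun. Of 70 alternatives for single windows, 23 moved. No paired analysis was possible because each factor has 1 joint list without replicate values, and for that reason no replicate could be left out. Depth is unknown, so a missing peak does not show that a factor was absent.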

Other observations

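Scores of the factors in shared regions of the 6 windows were compared by rank, as a description over regions that share libraries and peak widths. MyoD and MyoG scores gave Spearman's rho of 0.63 over 40 regions, against 0.54 over all 34348 shared regions. RUNX1 with c-Jun gave 0.26 over 30 regions, against 0.15 over 19331. RUNX1 gave 0.35 with MyoG over 28 regions, against 0.20 over 24513, and 0.27 with MyoD over 25 regions, against 0.21 over 18725. MyoD with c-Jun gave 0.18 over 25 regions, against 0.23 over 18482. The c-Jun and MyoG scores gave 0.11 over 26 regions, against 0.15 over 19030.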
